A study of Mus musculus with 6 samples.

Results

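The genes described here encode the proteins of the cytoplasmic ribosome, and they were read in a CUT&Tag experiment for H3K4me1, the single methylation of lysine 4 on histone H3. They were taken as all protein-coding genes of the GENCODE vM21 annotation of mm10 on chromosomes 1 to 19 whose symbol is Rpl or Rps followed by a digit, without the ribosomal S6 kinases (8 Rps6k symbols) and without 6 symbols that end in -ps and a number. The rule gave 78 genes of 20807, of which 46 carried a large subunit symbol (Rpl) and 32 a small subunit symbol (Rps). Among the 78 genes, 9 are paralogs or genes whose name only resembles the family, such as Rpl3l and Rps19bp1.

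The ribosome translates every messenger RNA, and its proteins are made in near-equal amounts in all dividing cells, so their genes are classed as housekeeping genes. They are short, are transcribed at a high rate, begin their transcripts with a run of pyrimidines, and often carry small nucleolar RNAs (snoRNAs) in their introns. H3K4me1 is best known from enhancers, and at active promoters it usually flanks the start site, where trimethylation of the same lysine takes its place.

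Whisker pads of wild-type mouse embryos at embryonic day 12, strain B6/J2, were digested to single cells and profiled with a rabbit antibody against H3K4me1 in 3 replicates. No mutant or treatment entered the comparison. The titles name no second tissue, but the source names of 2 replicates do, as described below. The 3 IgG samples are not analysed here, and the peak shares below therefore have no antibody background to be set against. Whole pads hold mesenchyme, surface ectoderm, nerve, vessel and blood cells together. The study describes the replicates as separate wild-type whisker pads; whether they came from different embryos was not given in the sources used here, so the spread between them may be partly technical.

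The labels of 2 of the 3 replicates contradict themselves. Replicates 2 and 3 have titles naming whisker pad but source names naming adult kidney, while both labels of replicate 1 name whisker pad. Among 14 genes of the facial mesenchyme, such as Prrx1, Alx4 and Msx1, 14, 14 and 12 had a peak over the gene or 5 kb on either side in replicates 1, 2 and 3. Among 10 genes of the surface ectoderm the counts were 6, 6 and 4, with Krt14, Epcam, Esrp1 and Perp at 0 peaks in every replicate. Among 12 genes of the adult kidney the counts were 3, 3 and 1, and none of the 12 had a peak at its start site. All protein-coding genes had shares of 25.8%, 23.5% and 20.2% in the wider window. The kidney list, at 25%, 25% and 8.33%, lay near or below these. The mesenchyme list, at 100%, 100% and 85.7%, and the ectoderm list, at 60%, 60% and 40%, lay above them. At the start site all genes had 9.99%, 10% and 6.39%. These lists were not tested. Replicate 1 is given alone beside each result.

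The 3 peak lists held 16788, 12969 and 13998 regions with median lengths of 2981, 3682 and 3352 bp. Each list holds the regions of highest total signal, the sum of the read pileup over the region, and the lowest kept totals were 14265, 24247 and 19337. A gene without a peak is therefore not shown to lack the mark, and read totals per replicate are not in the lists.

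The ribosomal protein genes differ from other genes in ways that bear on any count of peaks. Their median length was 3328.5 bp against 17629 bp for all protein-coding genes, with a range from 374 to 31449 bp. Another protein-coding gene lay within 5 kb of 59 of the 78 genes (75.6%), against 53.1% of all genes. A snoRNA lay inside 26 of them (33.3%), against 1.17% of all genes. The median GC content of the 1 kb on either side of the start site was 52.7%, near the 51.4% of all genes.

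Part of the family shares a run of pyrimidines at the start. RefSeq (GRCm38.p6) promoter sequences were matched for 59 of the 78 genes, each running from 250 bases before to 50 bases after the start. The 6 windows printed first belong to genes with a peak within 1 kb of their start in at least 2 replicates, and the last 2 belong to Rpl38 and Rpl27a, which had no peak in any replicate. Each runs from 45 bases before the start through the first 20 transcribed bases, 5′ to 3′ on the strand of the gene, and capitals mark the longest run of C and T that touches the 5 bases on either side of the start.
Rps24, chr14:24490633-24490697, plus strand: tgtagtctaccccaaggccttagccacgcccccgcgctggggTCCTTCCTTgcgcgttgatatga
Rpl10a, chr17:28328426-28328490, plus strand: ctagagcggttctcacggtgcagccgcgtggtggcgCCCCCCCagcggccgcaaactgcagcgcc
Rps18, chr17:33955646-33955710, minus strand: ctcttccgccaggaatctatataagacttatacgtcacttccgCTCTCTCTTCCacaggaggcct
Rpl34, chr3:130730379-130730443, minus strand: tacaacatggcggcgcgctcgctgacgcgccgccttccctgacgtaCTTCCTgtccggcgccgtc
Rpl13a, chr7:45128726-45128790, minus strand: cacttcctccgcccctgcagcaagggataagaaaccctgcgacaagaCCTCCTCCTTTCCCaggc
Rps15a, chr7:118116128-118116192, minus strand: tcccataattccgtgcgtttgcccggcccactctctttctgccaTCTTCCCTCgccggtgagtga
Rpl38, chr11:114668535-114668599, plus strand: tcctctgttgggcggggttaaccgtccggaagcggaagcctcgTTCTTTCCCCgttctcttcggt
Rpl27a, chr7:109519150-109519214, plus strand: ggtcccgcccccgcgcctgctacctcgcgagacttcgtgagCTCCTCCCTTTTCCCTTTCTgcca

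The run was 11 bases long at Rps18, 14 at Rpl13a and 20 at Rpl27a. Rpl24, Rps19 and Rps7, also without a peak within 1 kb of the start, had shorter runs of 2, 4 and 5 bases and are not printed. A run of at least 8 bases stood at the start of 21 of the 59 genes (35.6%), against 9.30% of the 15686 promoters searched. In the whole 300 bases and on both strands, CCGGAA, the core letters bound by Ets factors, stood in 28 of 59 (47.5%) against 20.3% of all promoters. GGGCGG, the GC box, stood in 59.3% against 49.9%, GATGGCG, found in YY1 sites, in 8.47% against 4.79%, and TATAAA in 5.08% against 12.9%. Of the genes with a peak within 1 kb of the start in any replicate, 7 of the 12 with a sequence had a run of at least 8, and of those without, 14 of 47 did; this split was looked at after the values were known and was not tested. A match of letters is a description and not a bound site.

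Few ribosomal protein genes had a called H3K4me1 peak at the start site, about the share of genes in general. A peak lay within 1 kb of the annotated start of 9 genes in replicate 1, 8 in replicate 2 and 5 in replicate 3, or 11.5%, 10.3% and 6.41% of the 78. Over all protein-coding genes the shares were 9.99%, 10% and 6.39%. The mean for the ribosomal protein genes was 9.40% ± 2.67 (SD, n = 3). No such peak was seen in any replicate at 65 of the 78 genes, and at 18023 of all 20807 protein-coding genes. In all 3 replicates only Rps14 had one, 1.28% of the family against 4.19% of all genes. Rps14 encodes a small subunit protein needed for the maturation of the small subunit RNA.

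Other genes of the same lengths gave similar shares at the start. To allow for length, all other protein-coding genes were divided into 20 length bins, and the share in each bin was weighted by the number of ribosomal protein genes in it. The weighted shares were 10.4%, 10.6% and 4.89%, and the ribosomal protein genes minus these gave 1.12, -0.32 and 1.52 percentage points. The mean difference was 0.77 ± 0.97 percentage points (SD, n = 3; exact two-sided sign-flip permutation test over the 3 replicates, p = 0.50, where the smallest p the test can give is 0.25). The difference turned negative, to -1.98 points, when each length bin was also split by GC content, and to -0.40 without Rps14.

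The gene with 5 kb on either side contains the window at the start, so its share cannot be lower than the one there. A peak was found at 22 genes in replicate 1, 17 in replicate 2 and 9 in replicate 3, or 28.2%, 21.8% and 11.5%, with a mean of 20.5% ± 8.41 (SD, n = 3). All protein-coding genes, which are longer and so offer wider windows, had 25.8%, 23.5% and 20.2%. Other genes weighted to the same lengths had 17.7%, 16.5% and 9.62%, below the ribosomal protein genes in each replicate by 10.5, 5.27 and 1.92 percentage points. The mean difference was 5.90 ± 4.34 points (SD, n = 3; exact two-sided sign-flip permutation test, p = 0.25, the smallest it can give, so that 0.05 cannot be reached). It was 1.01 points among genes with no other gene within 5 kb and 1.58 points when the bins were split by GC content. In replicate 1 alone, the replicate whose labels are not in conflict, it was 10.5 points.

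Few of the genes had a peak in every replicate. Of the 78 genes, 6 had a peak in all 3 replicates, 12 in exactly 2, 6 in 1, and 54 in none. A peak in any replicate was thus seen at 30.8% of the family, near the 29.7% of all protein-coding genes. The 6 genes are 7.69% of the family, against 16.1% of all protein-coding genes and 8.14% of other genes weighted to the same lengths. Replicates 1 and 2 shared 9 genes that replicate 3 lacked, replicates 1 and 3 shared 3 that replicate 2 lacked, and replicates 2 and 3 shared none that replicate 1 lacked. Replicate 3 had no gene of its own, while 4 genes were seen only in replicate 1 (Rps10, Rpl36, Rpl35 and Rpl6) and 2 only in replicate 2, among them Rpl7a. These overlaps between replicates were not counted over all genes, so they are not shown to be particular to the family. The small and the large subunit had means near each other, 20.8% ± 6.51 and 20.3% ± 11.97 (SD, n = 3).

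**Figure D1:**
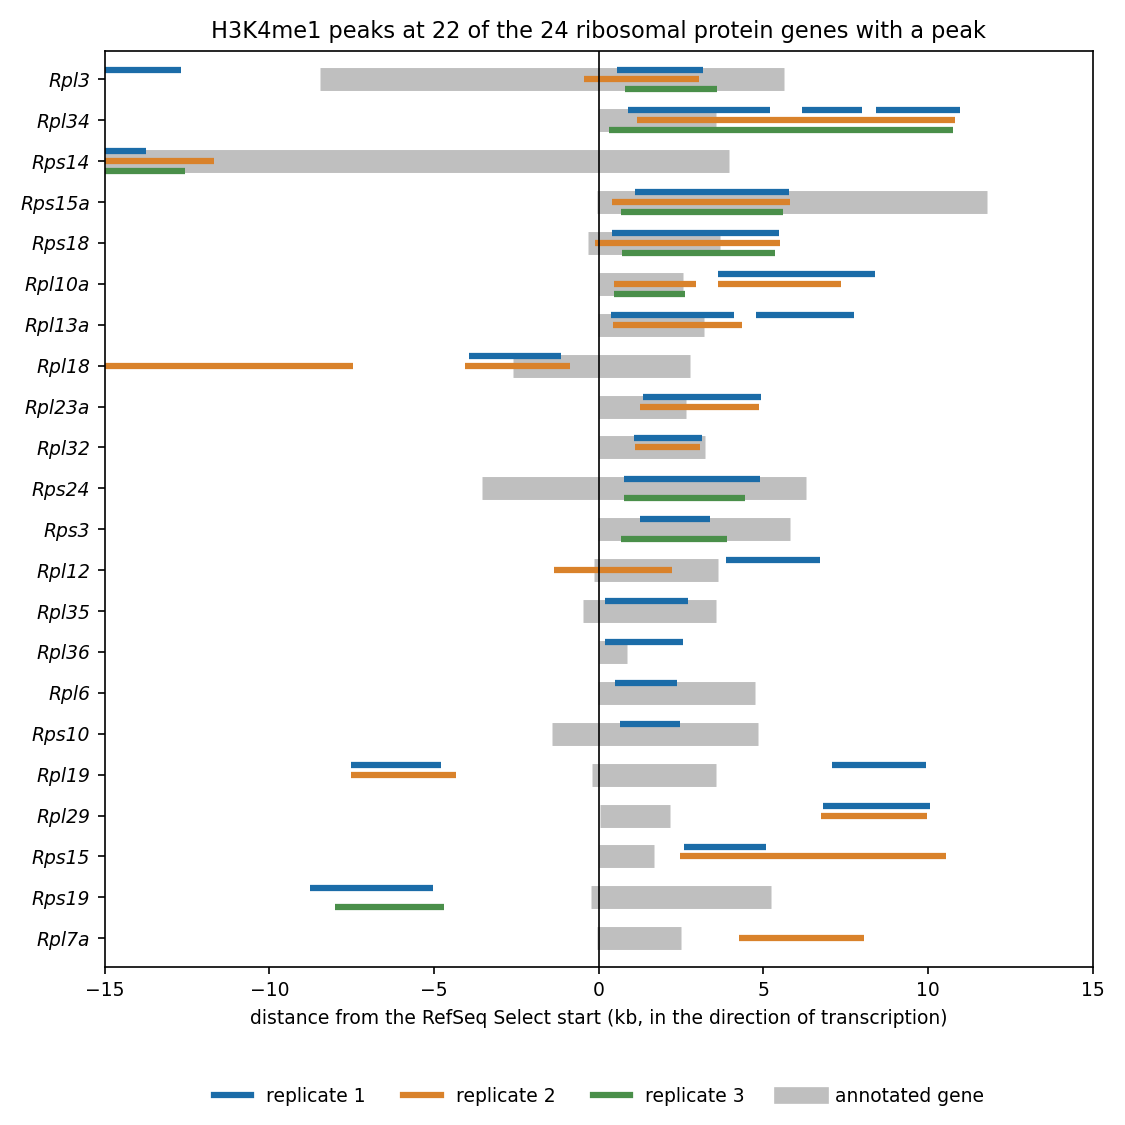
Peaks at 22 of the 24 ribosomal protein genes with a peak over the gene or 5 kb on either side, with distance from the RefSeq Select start in kb on the horizontal axis and the direction of transcription to the right. Grey bars are the annotated genes and coloured bars the peaks of each replicate, cut off at 15 kb; most peaks on the genes begin to the right of the start, and those of Rps14 lie at the far left.

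Where the peaks lay relative to the start was examined next, after the first counts had been seen, with the start of the RefSeq Select transcript, the 1 transcript RefSeq chooses for each gene. All 78 genes have one, as do 93.2% of protein-coding genes, and the others kept their annotated start. At 7 of the 78 genes (Rps24, Rpl3, Rps2, Rps10, Rps14, Rpl17 and Rpl18) it lay over 1 kb downstream of the annotated start of the gene, by as much as 27498 bp at Rps14. A peak lay within 1 kb of the Select start of 10, 8 and 7 ribosomal protein genes, against 10.5%, 10.4% and 6.94% of all genes, which for the family are shares of 12.8%, 10.3% and 8.97%. In all 3 replicates Rpl3 and Rps18 had one, 2.56% against 4.52% of all genes.

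The start base itself was almost free of peaks. No ribosomal protein gene had a peak over the Select start in replicate 1, 3 had one in replicate 2 (Rpl3, Rps18 and Rpl12), and none had one in replicate 3. Over all genes the shares were 5.66%, 7.03% and 2.52%, and 1.84% in all 3 replicates against 0 of the 78. Other genes of the same lengths had 6.53%, 7.89% and 2.47%, and the family minus these gave -6.53, -4.05 and -2.47 percentage points. The mean difference was -4.35 ± 2.04 points (SD, n = 3; exact two-sided sign-flip permutation test, p = 0.25, the smallest it can give). With the annotated start the difference was -2.66 ± 1.37 points (SD, n = 3) and again below 0 in each replicate. Neither difference was split by GC content or by neighbouring genes. A low share at the start base was not particular to the family, and the values of other housekeeping lists are given further below.

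Most peaks near the start lay downstream of it. Of the 10 genes with a peak within 1 kb of the Select start in replicate 1, 9 had it only downstream and 1 had peaks on both sides. In replicate 2 the peak was downstream at 3 of 8 genes, over the start at 3 and upstream at 2, and in replicate 3 it was downstream at 7 of 7. Among all protein-coding genes with a peak there, 53.8%, 67.3% and 36.4% had it over the start and 35.6%, 26.0% and 48.8% only downstream. Among other genes within the middle 90% of the family's lengths, 61.5%, 73.9% and 50.8% had it over the start. On the genes themselves, peaks that lay wholly downstream began 200 to 1349 bp after the start in replicate 1 (14 genes, median 596.5 bp), 405 to 1255 bp in replicate 2 (6 genes) and 311 to 787 bp in replicate 3 (7 genes).

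**Figure D2:**
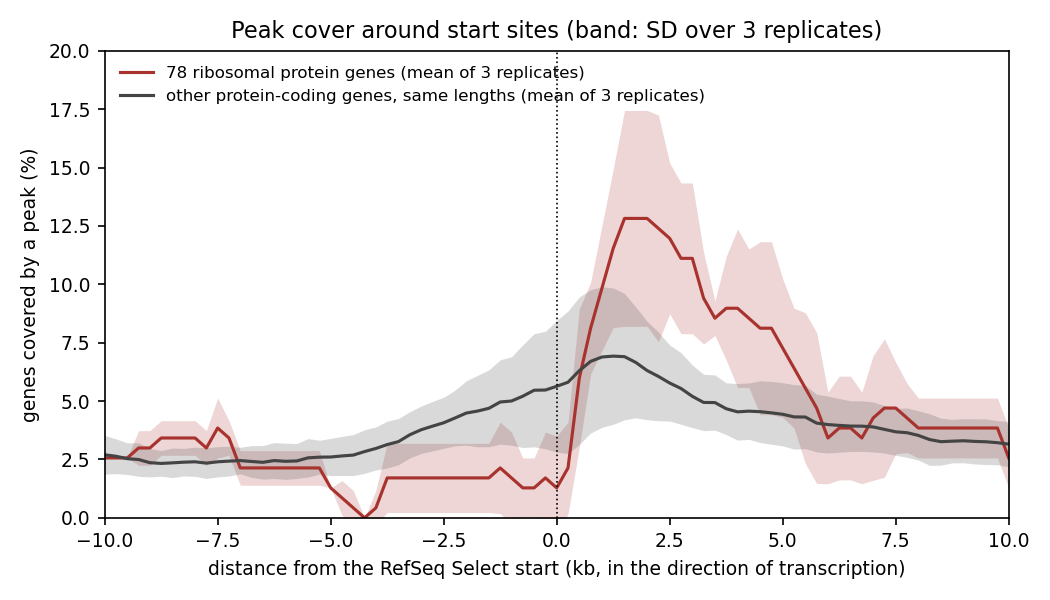
Share of genes (%) that a peak covers at each distance (kb) from the RefSeq Select start, in the direction of transcription, for the 78 ribosomal protein genes (red) and for other protein-coding genes weighted to their lengths (grey). Lines are means and bands the SD over 3 replicates, cut off at 0; the red line is at 1.28% at the start and 12.8% at 2 kb, the grey line at 5.63% and 6.31%.

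In the mean over replicates the cover of the family was low at the start and highest up to 2 kb beyond it. At 2 kb downstream a peak covered 14, 9 and 7 of the ribosomal protein genes in replicates 1 to 3, or 17.9%, 11.5% and 8.97%, and 7.34%, 7.69% and 3.88% of other genes of the same lengths. The means were 12.8% ± 4.62 and 6.31% ± 2.11 (SD, n = 3), and at 1 kb they were 9.83% ± 2.67 and 6.89% ± 3.01. At 2 kb before the start the family had 1.71% ± 1.48 and the others 4.49% ± 1.38, while at 8 kb before it the family, at 3.42% ± 0.74, lay above the others, at 2.40% ± 0.63. These distances were chosen after the profile was seen and were not tested.

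The mean cover of the gene by peaks was also above that of other genes of the same lengths in each replicate, least so in replicate 2. Of the annotated gene without its flanks, the mean share of bases under a peak was 10.8%, 8.44% and 5.50%, against 7.06%, 7.62% and 3.18% for other genes of the same lengths. In the 3 replicates 16, 12 and 8 ribosomal protein genes were touched by a peak themselves, and 5 were in all 3 (6.41%). All protein-coding genes had 21.9%, 20.1% and 17.5%, and 13.7% in all 3, while other genes of the same lengths had 4.66% in all 3. Of the 24 genes with a peak in the wider window, 18 had one on the gene itself and 6 only in the flanks. The nearest peak to the start was at a median of 35.5, 49.2 and 74.2 kb for the family, and at 85.1, 104 and 140 kb for other genes of the same lengths. Neither the cover nor these distances were tested, or split by GC content or by neighbouring genes.

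Of the 6 genes with a peak in all 3 replicates, 4 had their strongest peak above the list median in each replicate. Strength is given as the percentile of a peak's total signal among all peaks of its replicate, taking the strongest peak over the gene or 5 kb on either side. Rpl34, which encodes a large subunit protein, lies at chr3:130726831-130730398 with no other protein-coding gene within 5 kb. Its percentiles were 70.0, 90.6 and 96.3 (85.6 ± 13.8, SD, n = 3), the highest mean of the 6 genes. The region began 902, 1160 and 311 bp after the start and ran beyond the end of the gene, as 1 stretch of 9673 bp in replicate 2 and of 10442 bp in replicate 3. In replicate 1 it was called as 3 separate peaks of 4297, 1803 and 2558 bp. At 8406 to 10963 bp after the start, the last of these held the highest maximum of the 3, a pileup of 83. The maxima of the 3 replicates lay 9490, 9360 and 9966 bp after the start, all outside the gene.

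The bases at the maxima of replicates 1 and 2 are shown because the peak of highest total signal near any of the 78 genes in replicates 2 and 3 was the one at Rpl34, with its maximum beyond the gene. They are read from the RefSeq genome sequence of GRCm38.p6 on the plus strand, and capitals mark the stretch that the maxima of replicates 1 and 2 span, with flanking bases in lower case.
Rpl34 downstream, chr3:130720878-130721071: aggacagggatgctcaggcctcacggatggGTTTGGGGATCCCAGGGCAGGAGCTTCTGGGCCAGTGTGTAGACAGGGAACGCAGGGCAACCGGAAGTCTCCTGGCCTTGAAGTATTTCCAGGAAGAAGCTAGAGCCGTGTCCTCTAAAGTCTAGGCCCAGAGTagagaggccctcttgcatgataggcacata
The window is 194 bp long with a GC content of 56.7%.

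Rps15a and Rps18 had regions of similar strength in each replicate. Rps15a (chr7:118104372-118116188), a small subunit protein gene, had percentiles of 77.0, 65.7 and 80.2 (74.3 ± 7.60, SD, n = 3). Its peak lay within the gene, beginning 1089, 405 and 680 bp after the start and spanning 4683, 5390 and 4901 bp. Rps18 (chr17:33951999-33956001), whose protein sits in the head of the small subunit, had percentiles of 79.4, 71.7 and 68.1 (73.0 ± 5.75, SD, n = 3). Its peak ran from within the gene past its end, and in each replicate it also covered the start of B3galt4, a galactosyltransferase gene beside it. A region shared by 2 genes cannot be given to either of them.

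The peaks of Rps14 lay far from the start that RefSeq chooses. Its percentiles were 84.1, 88.9 and 53.9 (75.7 ± 18.97, SD, n = 3). All its peaks lay upstream of the RefSeq Select start, ending 13759, 11683 and 12564 bp before it at the nearest. No peak lay within 1 kb of the Select start in any replicate. With the Select transcript and 5 kb on either side in place of the annotated gene, 5 genes had a peak in all 3 replicates, without Rps14.

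Rpl10a and Rpl3 had lower mean percentiles, though Rpl10a was above the list median in replicates 1 and 2. Rpl10a (chr17:28328471-28331033) had percentiles of 76.3, 71.6 and 1.66 (49.8 ± 41.8, SD, n = 3). In replicates 1 and 2 the strongest peak began 3623 and 3633 bp after the start, beyond the gene, whereas in replicate 3 the peak lay on the gene, 455 bp after the start, near the bottom of its list. A peak on the gene was seen in replicates 2 and 3 only. Rpl3 (chr15:80077791-80091868), whose protein reaches towards the peptidyl transferase centre, had percentiles of 51.5, 46.9 and 29.6 (42.7 ± 11.5, SD, n = 3). Its peak on the gene stretched over 2619, 3493 and 2799 bp, beginning 544 and 787 bp after the Select start in replicates 1 and 3 and at position -460, before the start, in replicate 2.

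**Figure D3:**
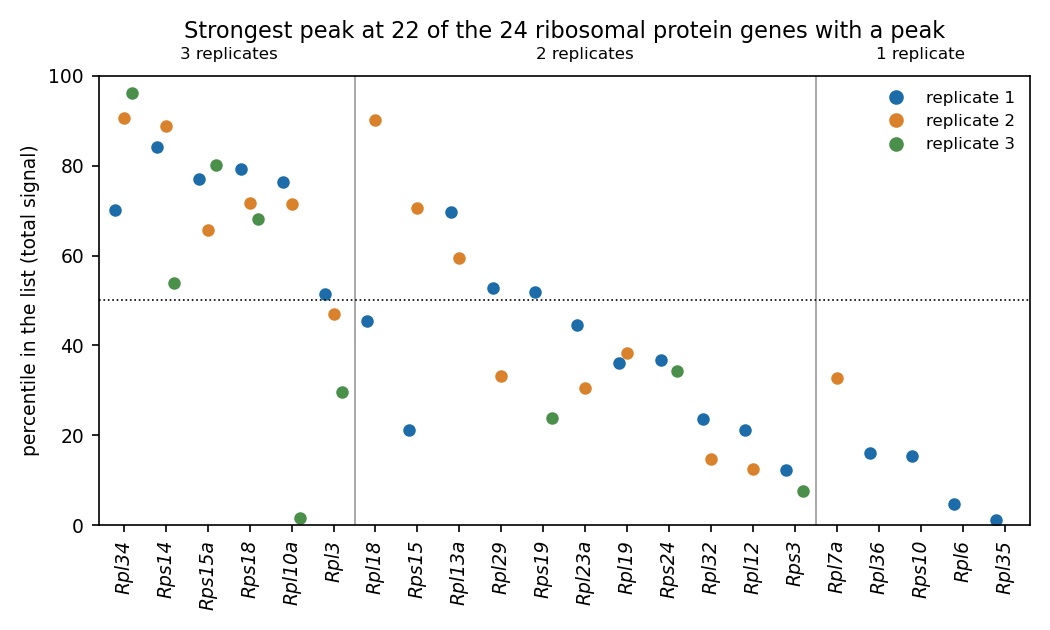
Percentile of total signal within its peak list (vertical axis, 0 to 100) for the strongest peak at 22 of the 24 ribosomal protein genes with a peak over the gene or 5 kb on either side, grouped by the number of replicates with a peak. Each point is 1 replicate and the dotted line is the list median; all 3 points of Rpl34, Rps14, Rps15a and Rps18 lie above it, and all points of the genes shown that were seen in 1 replicate lie below it.

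The peaks near the family were spread over the range of signal in the lists. Over all its genes with a peak, the median percentile of the strongest one was 44.98, 59.5 and 34.3 in the 3 replicates (46.3 ± 12.6, SD, n = 3). Each of the 6 genes with a peak in 1 replicate had it below the list median, from the 1.14th percentile at Rpl35 to the 32.7th at Rpl7a. Counting every peak near the family, 18 of 31, 11 of 21 and 8 of 12 lay below the list median, which divides each list evenly by definition.

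Several of the other peaks belonged as much to a neighbour; these genes were picked after their values were seen. The strongest peak at Rpl13a, a large subunit protein gene, began 367 and 420 bp after its start in replicates 1 and 2. The peak near Rps15 covered the start of Apc2 in replicates 1 and 2, that near Rpl29 the start of Acy1 in replicates 1 and 2, and that near Rpl7a the starts of Surf1 and Surf2 in replicate 2. Of the 59 family members with another protein-coding gene within 5 kb, 19, 16 and 7 had a peak, or 32.2%, 27.1% and 11.9%. Of the 19 without such a neighbour, 3, 1 and 2 did, or 15.8%, 5.26% and 10.5%, so that replicate 3 hardly differed. All protein-coding genes, not split by neighbour, had 25.8%, 23.5% and 20.2%. This split was not tested.

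The snoRNA hosts and the other genes had overlapping shares. Of the 26 genes with a snoRNA inside, 8, 8 and 2 had a peak over the gene or 5 kb on either side, and of the 52 without one, 14, 9 and 7 did. The means were 23.1% ± 13.3 and 19.2% ± 6.93 (SD, n = 3), a difference smaller than either spread.

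The family members known from mouse mutants were looked up one by one. Rpl38, Rpl24, Rpl27a, Rps19, Rps20 and Rps7 are genes in which loss or change of 1 copy alters the body plan, the pigment or the growth of mice, and Rpl38 in particular is known for skeletal patterning. None of the 6 had a peak on the gene or within 1 kb of the start in any replicate, and at a family share of 9.40% at the start 6 genes are too few to tell this from the rest of the family. Rps19 alone had one in the flank, ending 5033 and 4711 bp before the Select start in replicates 1 and 3, at the 51.9th and 23.8th percentile. In replicate 2 its nearest peak lay 5227 bp from the Select start, just outside the window, so the count there rests on the window's edge. At Rpl38 the nearest peak lay 99545, 99206 and 153770 bp from the start, and at Rps20 it lay over 300 kb away in each replicate. Of 18 genes known from Diamond-Blackfan anaemia, an inherited failure of red cell production, 5, 1 and 2 had a peak over the gene or 5 kb on either side, a mean of 14.8% ± 11.6 (SD, n = 3) beside the 20.5% ± 8.41 of the whole family, and none had one in all 3 replicates.

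The 9 paralogs and look-alike names had no peak over the gene or 5 kb on either side in any replicate. The same held for 14618 of all 20807 protein-coding genes. With 9 genes, these names are too few to be told from the rest of the family. They are Rpl3l, Rpl7l1, Rpl10l, Rpl22l1, Rpl36al, Rpl39l, Rps27l, Rps27rt and Rps19bp1, several of which are known to be used in muscle or testis. Of them Rpl3l, the muscle form of Rpl3, had the nearest peaks, at 18976, 17633 and 17672 bp from its start. Rpl10l, a testis form of Rpl10, had the farthest in replicate 1, 2796927 bp away.

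The genes without a peak over the gene or 5 kb on either side in any replicate numbered 54 of 78, beside 14618 of all 20807 protein-coding genes. For the large subunit they included Rpl3l, Rpl4, Rpl5, Rpl7, Rpl7l1, Rpl8, Rpl9, Rpl10l, Rpl11, Rpl13, Rpl14, Rpl15, Rpl17, Rpl21, Rpl22, Rpl22l1, Rpl23, Rpl24, Rpl26, Rpl27, Rpl27a, Rpl28, Rpl30, Rpl31, Rpl35a, Rpl36al, Rpl37, Rpl37a, Rpl38, Rpl39l and Rpl41. For the small subunit they included Rps2, Rps3a1, Rps6, Rps7, Rps9, Rps12, Rps13, Rps16, Rps19bp1, Rps20, Rps21, Rps23, Rps25, Rps26, Rps27, Rps27a, Rps27l, Rps27rt, Rps28 and Rps29. Among them are Rpl5 and Rpl11, which hold back Mdm2 when ribosome assembly fails, and Rps6, the substrate of the S6 kinases. Processed pseudogenes with near-identical sequence exist for many of these genes, and how reads that fit several places were treated was not given in the sources used here, so counts at single genes are uncertain.

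**Figure D4:**
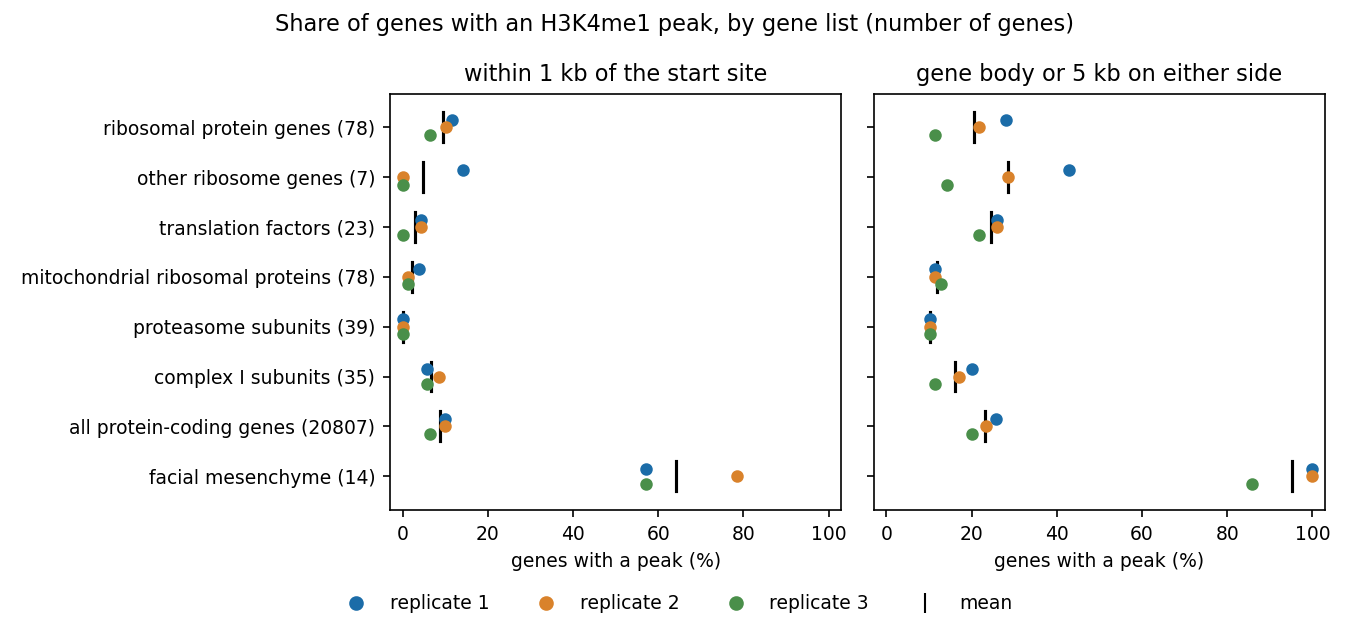
Share of genes (%) with a peak within 1 kb of the annotated start (left) and over the gene or 5 kb on either side (right), for each gene list with its number of genes. Each point is 1 replicate and each black line the mean; the ribosomal protein genes lie near all protein-coding genes in the left panel, and the facial mesenchyme genes lie farthest to the right in both.

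Other housekeeping genes gave a yardstick for the family. Of 78 mitochondrial ribosomal protein genes, which serve the ribosome of the mitochondrion, 3, 1 and 1 had a peak within 1 kb of the annotated start, a mean of 2.14% ± 1.48 (SD, n = 3) against 9.40% for the cytoplasmic family. Of 39 genes with proteasome subunit symbols none had one in any replicate. Of 35 genes with the Nduf symbols of respiratory complex I, 2, 3 and 2 had one. Lists taken by symbol also hold look-alike names, such as Psmc3ip and Ndufa4l2, and Ndufa4l2 had a start peak in each replicate. Over the gene and 5 kb on either side the mitochondrial list had 9, 9 and 10 genes with a peak, the proteasome list 4, 4 and 4, and the complex I list 7, 6 and 4. The means of 11.97% ± 0.74, 10.3% ± 0 and 16.2% ± 4.36 (SD, n = 3) stood below the 20.5% of the ribosomal protein genes, unlike those of the ribosome and translation lists given next, and the 3 lists hold longer genes, with median lengths of 7899.5, 12361 and 8379 bp. In replicate 3 the family, at 11.5%, lay within the range of these lists, and the differences between lists were not tested.

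Further genes of the ribosome and of translation were counted in the same windows. Of the 7 other genes for ribosomal components that the symbol rule leaves out, 3, 2 and 1 had a peak over the gene or 5 kb on either side, a mean of 28.6% ± 14.3 (SD, n = 3), above the 20.5% of the family. The stalk protein gene Rplp2 had one in 2 replicates and Rplp0 in 1. Of 23 genes of translation factors and related proteins, the latter including Npm1, Tpt1 and Nap1l1, 6, 6 and 5 had a peak in the same window. Their mean of 24.6% ± 2.51 (SD, n = 3) also lay above the family, and Eif3h, Eif4b and Eef1g had a peak in all 3 replicates. All protein-coding genes had a mean of 23.2% there. The translation factor genes had a median length of 14008 bp, so their windows were wider than those of the family. On the annotated gene itself the order was reversed, with means of 8.70% for the translation factors, 4.76% for the 7 genes and 15.4% for the family. At the annotated start, 1, 1 and 0 of the 23 had a peak. Over the Select start base, the mean share was 1.28% for the family and also 1.28% for the mitochondrial list. It was 0 for the proteasome, translation factor and other ribosome lists, and 6.67% for the complex I list, which includes Ndufa4l2. These shares were not tested.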

How the data were processed

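H3K4me1 was profiled by CUT&Tag in 3 whisker pad samples. Per the labels and the study's methods, the authors aligned paired reads to mm10 with Bowtie2 2.3, used SAMtools 0.1.19 and bedtools, and called peaks in each replicate with SEACR 1.3 in stringent mode without IgG, keeping the top 1% of regions. The deposited lists give each region's position, total signal and maximum signal, the summed and highest pileup, which is coverage not scaled for depth; comparisons between replicates therefore used percentiles within a list. Handling of duplicates was not given in the sources used here. Here, any overlap of 1 bp counted as a peak. Genes came from GENCODE vM21, and other genes were weighted to the family's lengths in 20 bins. Differences were tested over replicates by exact sign flips. Scripts (Python 3.11.15, pandas 2.3.3) were tested on simulated data. The family, gene lists and tests were chosen with earlier results of these data known. Named genes were those with a peak in all 3 replicates, the mouse mutants, the paralogs, and those in 1 replicate; all others were named after their values were seen. Samples were grouped by their titles. Alternatives were the part of the lists used, the windows, the annotation, the weighting and each replicate left out. Some genes counted in the totals are not reported here by name.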

Additional observations from a re-analysis of the deposited data

How the results depend on the processing

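The 7 main results gave 112 values under the alternatives, of which 77 stayed within 1 SD of the main value, within 1.5 times for a count, or on the same side of 0 for a difference, 28 moved further and 7 changed sign; the cause was not tested. With the stronger 50% of each list, the shares fell to 5.56% at the start and 9.83% over the gene with flanks. Fewer peaks are counted there, so the shares could not rise. The difference over the gene with flanks fell to 1.42 points. The median percentile was 71.9, and 64.5 with the strongest 10000 peaks. This rise is fixed by the setting, since percentiles were kept from the full list and its weaker peaks were left out. Among genes with no other protein-coding gene within 5 kb, 19 of the 78, the shares were 5.26% and 10.5%, the counts in all 3 replicates 0 and 1, the percentile 67.5, and the difference from other genes at the start -0.60 points. That difference was also below 0 at the start base itself (-2.66), with the position of the highest pileup (-0.97), with length bins split by GC content (-1.98), and, as alternatives chosen after seeing the data, at the RefSeq Select start base (-4.35) and without Rps14 (-0.40). The share was 2.99% at the start base, 2.14% with the highest pileup, 1.28% at the Select start base, 13.7% within 2.5 kb and 13.7% over any protein-coding transcript start. The number of genes with a start peak in all 3 replicates, 1 in the main result, was 4 in both of the last, 2 within 1 kb of the Select start, and 0 with the highest pileup, at the Select start base and without Rps14. Flanks of 20 kb gave 30.3% and 13 genes in all 3 replicates. Without weighting for length, the difference over the gene with flanks was -2.66 points. Replicate 1 alone had 9 and 22 genes. Leaving out 1 replicate at a time gave 2 to 5 genes with a start peak in all the others and 6 to 15 with a peak over the gene or flanks, 15 being the count without replicate 3. The differences then ranged from 0.40 to 1.32 points at the start and from 3.59 to 7.89 over the gene with flanks. Adding the 6 symbols ending in -ps and a number, also chosen after seeing the data, moved no result beyond these bounds.

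No paired analysis was possible because only H3K4me1 peaks entered the comparisons, which leaves 1 group and nothing to pair its replicate numbers with. The lists give no read totals, so the part that depth plays in the counts is unknown.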
